A study of Mus musculus with 12 samples.

Results

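The 42 genes described here encode the complement, clotting and fibrinolysis proteins that the liver secretes into plasma, together with their inhibitors. They were listed by name and matched to the gene symbols of the deposited table, a rule that uses no measured value, and all 42 were found among its 55401 genes. All 42 also passed the filter on low counts, which left 19014 genes for testing. Their RNA was measured by bulk RNA sequencing of liver from C57BL/6 mice labelled male and aged 8 to 10 weeks. The FLOX groups carried LPCAT3flox/flox, a floxed allele of the phospholipid-remodelling enzyme Lpcat3. The LKO groups carried LPCAT3flox/flox-cre, the same allele with a cre transgene whose promoter is not given in the sources used here. Each genotype received control feeding (NC) or the NIAAA diet (ALD), a mouse model of alcoholic liver injury. The analysis used 3 FLOX-NC, 2 LKO-NC, 3 FLOX-ALD and 3 LKO-ALD libraries, with LKO-NC replicate 3 not analysed here. Whether replicates are different animals is not in the labels, so part of the spread behind each p-value may be technical. In FLOX-ALD the sex-linked genes of replicate 1, given below, differ from those of replicates 2 and 3, so that group was not a single animal.

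Complement is a cascade of plasma proteases. The classical and lectin branches and the alternative pathway meet at C3, and the terminal components then assemble into a pore, the membrane attack complex. Coagulation runs through vitamin K-dependent proteases to thrombin, which turns fibrinogen into fibrin, and plasmin dissolves the clot. Hepatocytes make most of these proteins. Fibrinogen and C3 are known acute phase proteins, raised by interleukin 6 and related cytokines, and liver disease is known to change both systems. In bulk tissue, fewer cells of a type and less RNA per cell cannot be told apart.

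The libraries held 39063371 to 73557868 estimated counts, and the 42 genes took 2.26 to 7.2% of them. Lpcat3 was at 87.1 to 103.1 CPM (counts relative to library size, scaled by edgeR's TMM factors) in FLOX-NC, 29.2 to 37.2 in LKO-NC, 30.5 to 43.2 in FLOX-ALD and 9.8 to 15.4 in LKO-ALD. FLOX-ALD replicate 1 went against its label of male: Xist stood at 771.9 CPM against at most 2.95 in the other 10 libraries, and its genes of the Y chromosome had no count. Results that moved most when it was left out are therefore given with and without it. It held the highest of the 11 levels for 17 of the 42 genes, whereas FLOX-ALD replicate 2 held the lowest for 14 and LKO-ALD replicate 3 the lowest for 15. Mitochondrial genes took 22.3 and 26.4% of counts in FLOX-ALD replicates 2 and 3 and 25.3% in LKO-NC replicate 1, against 12.1 to 15.4% in the other 8. Of 12 hepatocyte markers listed, 11 were in the table and all 11 had a mean over 1 CPM. Their summed level was 117747 to 122226 CPM in FLOX-NC, 81535 to 128144 in LKO-NC, 70009 to 122002 in FLOX-ALD and 62652 to 97028 in LKO-ALD. Alb made up most of this sum, from 39022 CPM in LKO-ALD replicate 3 to 101705 in FLOX-ALD replicate 1. Not every marker followed Alb: Cps1 was at 1239.6 to 1422.8 CPM in FLOX-NC and 1631.5 to 2720.1 in LKO-ALD.

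On the length-corrected FPKM scale, the order of the median levels over the 11 libraries ran from Fgg at 1827 FPKM, Fga at 1637 and Fgb at 1599 to Masp1 at 22.8, F13b at 22.2 and Pros1 at 19.4, with F11 between the last 2. Kng1, a kininogen gene, followed the fibrinogen chains at 1059 FPKM, ahead of Vtn at 833.1 and C3 at 661.1. Several of the genes lie side by side in the mouse genome (build mm10): Fgg, Fga and Fgb share 42.1 kb at chr3:83007724-83049863, and F7, F10 and Proz lie at chr8:13026034-13076026. C1ra and C1s1 adjoin at chr6:124512405-124542359, Cfb and C2 within 41.9 kb of chromosome 17, C8a and C8b within 110.1 kb of chromosome 4, F11 and Klkb1 within 53.7 kb of chromosome 8, and Kng1 and Kng2 within 96.2 kb of chromosome 16.

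The promoters of the genes with the largest feeding differences in either direction are shown because the fibrinogen genes and the terminal complement genes C6 and C9 lay at opposite ends of that range. RefSeq promoter windows (build GRCm38.p6, 250 bases before to 50 bases after the transcript start) matched 33 of the 42 genes. Capitals mark each match, on either strand, to any of 5 motifs: the STAT-type TTCNNNGAA, the type II interleukin 6 element CTGGGAA, the C/EBP-type TTNCNNAA, the HNF1 half-site GTTAAT and the HNF4-type CAAAGTCCA. The windows are C9 at chr15:6445096-6445395 and C6 at chr15:4726960-4727259, both on the plus strand, Fga at chr3:83025903-83026202 and Fgg at chr3:83007474-83007773 on the plus strand, and Fgb at chr3:83049814-83050113 on the minus strand.
C9: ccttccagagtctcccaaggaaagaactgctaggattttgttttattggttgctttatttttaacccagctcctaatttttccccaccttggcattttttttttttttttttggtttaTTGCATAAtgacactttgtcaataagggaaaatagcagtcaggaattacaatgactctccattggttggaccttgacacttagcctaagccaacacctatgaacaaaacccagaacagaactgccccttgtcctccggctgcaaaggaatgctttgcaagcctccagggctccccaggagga
C6: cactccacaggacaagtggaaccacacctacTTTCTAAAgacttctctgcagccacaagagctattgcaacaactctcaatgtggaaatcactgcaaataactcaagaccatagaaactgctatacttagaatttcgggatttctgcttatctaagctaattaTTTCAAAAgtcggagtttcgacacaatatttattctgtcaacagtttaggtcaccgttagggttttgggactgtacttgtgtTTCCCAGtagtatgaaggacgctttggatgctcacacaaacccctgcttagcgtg
Fga: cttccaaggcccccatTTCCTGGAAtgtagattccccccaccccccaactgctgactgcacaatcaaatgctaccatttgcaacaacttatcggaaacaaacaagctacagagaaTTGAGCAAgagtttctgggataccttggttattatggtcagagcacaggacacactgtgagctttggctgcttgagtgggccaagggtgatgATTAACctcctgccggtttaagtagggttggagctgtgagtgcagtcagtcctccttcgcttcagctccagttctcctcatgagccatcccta
Fgb: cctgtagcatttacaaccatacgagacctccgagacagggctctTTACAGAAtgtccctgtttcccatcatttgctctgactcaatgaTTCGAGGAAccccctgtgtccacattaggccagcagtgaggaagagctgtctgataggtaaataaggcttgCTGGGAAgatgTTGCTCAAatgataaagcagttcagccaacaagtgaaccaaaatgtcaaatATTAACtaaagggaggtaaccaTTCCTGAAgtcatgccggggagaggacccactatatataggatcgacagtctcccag
Fgg: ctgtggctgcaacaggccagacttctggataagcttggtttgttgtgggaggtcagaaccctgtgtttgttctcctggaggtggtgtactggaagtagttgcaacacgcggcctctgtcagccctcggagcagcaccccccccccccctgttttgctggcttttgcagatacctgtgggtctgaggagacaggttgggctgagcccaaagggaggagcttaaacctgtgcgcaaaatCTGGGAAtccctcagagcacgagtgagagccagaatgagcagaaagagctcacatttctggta

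The C9 window held a single match, to the C/EBP-type motif at position -132 from the start. C6 held 2 C/EBP-type matches and, at position -5, the interleukin 6 element on the opposite strand. Fga held STAT-type, C/EBP-type and HNF1 matches, and Fgb held those 3 kinds and the interleukin 6 element at -91. Fgg held only the interleukin 6 element, at -13. Over all 32851 windows of the same length, 8.3% held the STAT-type motif, 11.1% the interleukin 6 element, 40.7% the C/EBP-type motif, 7.1% the HNF1 half-site and 0.475% the HNF4-type motif. Of the 35 windows of the 42 genes, 8 held the STAT-type motif, 8 the interleukin 6 element, 21 the C/EBP-type motif, 11 the HNF1 half-site and 0 the HNF4-type motif. These are matches of letters in these windows, and binding was not measured.

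The first question is how the NIAAA diet and control feeding differed in these genes. When the feeding difference was averaged over both genotypes, 2 of the 42 genes passed an adjusted p of 0.05 (edgeR quasi-likelihood test, Benjamini-Hochberg over 19014 genes): C9 and C2 both fell. That is 4.76% of the 42, and 4.61% of all genes tested were called, 2.41% as lower, so the share called was near the background. Leaving out 1 library at a time gave 0 to 6 called genes. Without FLOX-ALD replicate 1 there were 2 (C9 and C6), beside 621 of all 18869 genes tested. The 6 without FLOX-ALD replicate 2 stood beside 1137 of 18804. Where leaving out a library gave 0 of the 42, 175 to 348 of all genes were called, against 877 with every library. The median log2 fold change of the 42 was -0.20, against 0.04 for all genes tested, with 15 genes above 0 and 27 below. Within FLOX, 0 of 42 passed against 0.221% of all genes, with 12 at an unadjusted p below 0.05 (28.6%, against 13.1% of all genes), of which 10 were lower. Within LKO, 0 of 42 passed against 0.957% of all genes, with 6 at an unadjusted p below 0.05 (14.3%, below the 19.5% of all genes), of which 2 were lower. The median was -0.23 in FLOX (all genes 0.07), with 28 genes below 0. It was -0.41 with 38 below 0 without FLOX-ALD replicate 1, and -0.13 without FLOX-ALD replicate 3. In LKO the median was -0.12 (all genes -0.00), and it changed sign, to 0.12, without LKO-NC replicate 2.

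DESeq2, which tested 15648 genes after its own filter, called more of them. In FLOX it called 6 lower, C9, C6, C8b, C1ra, C1s1 and C2, which is 14.3% of the 42 against 4.2% of all genes it tested. In LKO it called 3, C9 lower and C4bp and Cpb2 higher, or 7.14% against 9.75%. Averaged over genotypes it called 9, or 21.4% against 14.7%: Fgg and C3 as higher, and C9, C6, C2, C1ra, C1s1, Cfb and Proc as lower.

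The CPM levels of the libraries were also compared without a model. In FLOX, 11 genes were lower in every ALD library than in every NC library, or 26.2% of the 42 against 9.96% of all genes tested, and 1 gene, C3, was higher, against 9.42%. When FLOX-ALD replicate 1 was left out, 22 genes were lower (52.4%, against 15.3% of all genes) and C3 remained the one that was higher, against 15.1%. In LKO, where 3 libraries faced 2, 14 genes were apart and lower (33.3%, against 19.6% of all genes) and 13 apart and higher (31.0%, against 20.1%). Across all 11 libraries, C9 and C1s1 were lower in all 6 ALD than in all 5 NC libraries, against 2.6% of all genes, and C3 was higher, against 2.25%. Of the 42 feeding differences, 21 were below 0 in both genotypes, 11 above 0 in both and 10 differed in sign.

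**Figure D1:**
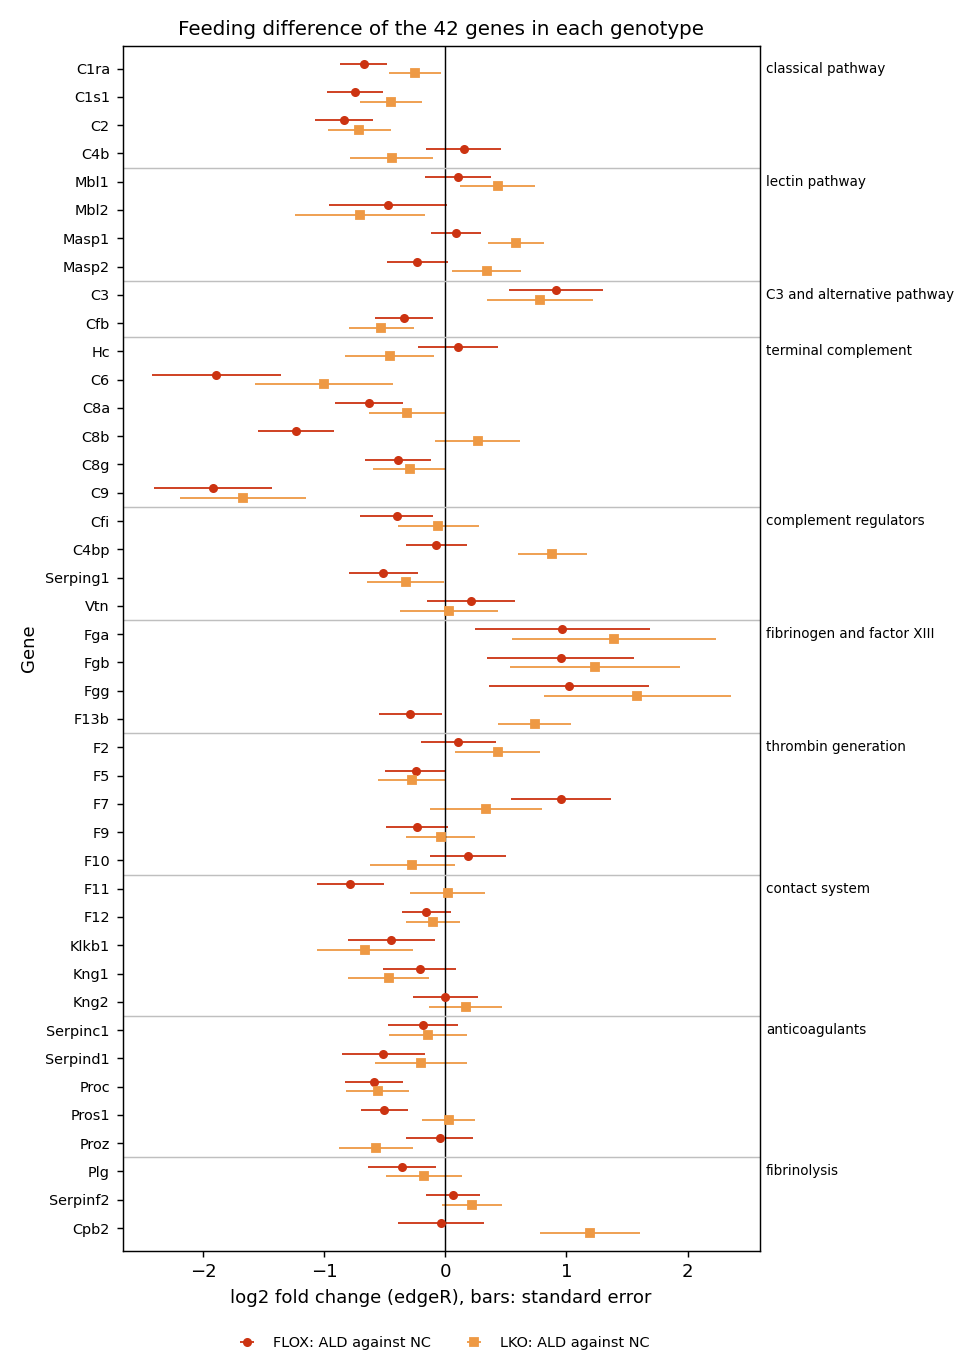
Feeding difference of each of the 42 genes, by role. The x axis is the edgeR log2 fold change of ALD against NC, circles for FLOX and squares for LKO, with standard errors as bars. C9 and C6 lie farthest to the left, at -1.92 and -1.89 in FLOX, and Fgg farthest to the right, at 1.58 in LKO.

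Terminal complement held the largest differences towards lower levels. C9, the subunit that polymerises to form the pore, was at 597.5, 673.1 and 443.0 CPM in the FLOX-NC libraries and at 362.2 and 338.9 in LKO-NC. It was at 47.1, 163.0 and 243.0 CPM in FLOX-ALD and at 116.2, 148.1 and 66.2 in LKO-ALD. All 6 ALD libraries were thus below all 5 NC libraries, and the lowest was FLOX-ALD replicate 1. C9 fell by 1.79 on the log2 scale averaged over genotypes (SE 0.356, fold 0.288, adjusted p = 0.020, edgeR), with -1.92 in FLOX (SE 0.487, adjusted p = 0.144) and -1.67 in LKO (SE 0.521, adjusted p = 0.117). Without FLOX-ALD replicate 1 the averaged value was -1.58 (adjusted p = 0.0101) and the LKO value passed at -1.67 (adjusted p = 0.0399). The averaged call was lost, with adjusted p up to 0.0774, when FLOX-NC replicate 1 or 2 or LKO-NC replicate 1 or 2 was left out.

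C6, which joins C5b to start the complex, was at 177.7, 222.5 and 209.0 CPM in FLOX-NC and 94.1 and 149.4 in LKO-NC. The ALD libraries were at 12.8, 54.5 and 96.9 CPM for FLOX and at 62.6, 65.5 and 54.1 for LKO. FLOX-ALD replicate 1 was again the lowest library, and the groups were apart in each genotype, although FLOX-ALD replicate 3 lay just above LKO-NC replicate 1. The log2 difference was -1.45 averaged over genotypes (SE 0.388, adjusted p = 0.0597), -1.89 in FLOX (SE 0.534, adjusted p = 0.193) and -1.003 in LKO (SE 0.57, adjusted p = 0.363). Without FLOX-ALD replicate 1 the averaged difference was -1.21 with adjusted p = 0.0128.

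C8b, the beta chain of C8, was low in LKO already under control feeding. It was at 308.6, 330.6 and 253.2 CPM in FLOX-NC and at 103.0 and 170.0 in LKO-NC, so that LKO-NC lay in the range of the ALD libraries. The ALD libraries were at 91.6, 151.1 and 136.7 CPM for FLOX and at 173.0, 219.2 and 100.8 for LKO. The feeding difference was -1.23 in FLOX (SE 0.315, adjusted p = 0.142) and 0.27 in LKO (SE 0.35, adjusted p = 0.729). The test of the difference between these values gave an interaction of 1.502 (SE 0.474) with adjusted p = 0.498, so it did not pass. The neighbouring C8a, the alpha chain, had an averaged difference of -0.47 and C8g, the gamma chain, -0.34. Hc, the mouse gene for C5, had -0.18, with its highest level of 1145.1 CPM in FLOX-ALD replicate 3.

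The male-biased liver list was set beside these genes and followed their order of libraries only in part. The sum of its 12 genes, all in the table, was 22304 to 31347 CPM in FLOX-NC, 4273 to 15040 in LKO-NC, 326.1 to 10462 in FLOX-ALD and 3620 to 11488 in LKO-ALD. FLOX-ALD replicate 1, the lowest library for C9, C6 and C8b, had the lowest sum, with Cyp4a12a, Cyp4a12b and Hsd3b5 at 0. The 12 female-biased genes summed to 7726 CPM there and to 14.7 to 185.6 CPM in the other 10 libraries. Other libraries kept the same order for some of these genes only. LKO-NC replicate 1 had the lowest male-biased sum of the NC libraries, 4273 CPM, and its C9 level of 362.2 CPM was above every ALD library. Its C6 level of 94.1 CPM and its C8b level of 103.0 CPM were, however, the lowest under NC. FLOX-ALD replicate 3 had a male-biased sum of 4865 CPM and the highest ALD levels of C9, 243.0 CPM, and C6, 96.9 CPM. Its C8b level of 136.7 CPM lay between the lowest and highest ALD levels, 91.6 and 219.2 CPM. The part of the sex-biased genes in the C9, C6 and C8b results was not tested.

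In the classical pathway, C2 encodes the protease that, cut and bound to C4b, forms the C3 convertase. It was at 90.2, 98.1 and 99.3 CPM in FLOX-NC and at 75.2 and 64.3 in LKO-NC. It was at 42.3, 54.1 and 64.5 CPM in FLOX-ALD and at 40.6, 56.6 and 30.6 in LKO-ALD. The ALD libraries of each genotype were below its NC libraries, and FLOX-ALD replicate 3 was level with LKO-NC replicate 2. C2 fell by 0.77 on the log2 scale averaged over genotypes (SE 0.177, fold 0.585, adjusted p = 0.0309, edgeR), with -0.84 in FLOX (adjusted p = 0.189) and -0.71 in LKO (adjusted p = 0.162). Without FLOX-ALD replicate 1 the averaged value was -0.70 and missed the threshold (adjusted p = 0.0537). The call was absent in 9 of 20 alternative settings.

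C1s1 and C1ra, the paired proteases of the C1 complex, were also lower under the NIAAA diet. C1s1 was at 526.6 to 564.1 CPM in FLOX-NC, 416.1 and 417.1 in LKO-NC, 271.3 to 356.1 in FLOX-ALD and 237.1 to 369.5 in LKO-ALD, which left no overlap between feedings. Its averaged difference was -0.60 (SE 0.172, adjusted p = 0.065). C1ra was at 236.3 to 264.2 CPM in FLOX-NC and 153.0 to 161.0 in FLOX-ALD, with an averaged difference of -0.46 (adjusted p = 0.0826). In LKO the C1ra levels overlapped, at 149.8 and 190.8 CPM under NC and 128.4 to 160.0 under ALD. C4b, the fourth component, was between 722.9 and 1751.2 CPM with an averaged difference of -0.15. Its near-identical copy C4a had 287 to 4637 unscaled counts in a library, which is not the CPM scale of C4b. The 4637 were among 62753336 counts in FLOX-NC replicate 1, where C4b was at 1141.8 CPM. The split of reads between C4b and C4a is uncertain. The copies C1rb and C1s2 had at most 9 and 10 counts in a library.

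C3, where the branches meet, was the one complement component higher in CPM in every ALD than in every NC library. It was at 3747, 3488.5 and 3108.7 CPM in FLOX-NC and 3752.3 and 3619.8 in LKO-NC. The ALD libraries were at 10746.1, 3769.3 and 4997.9 CPM for FLOX and at 6079.6, 4631 and 8302.5 for LKO. The margin between feedings was narrow, since FLOX-ALD replicate 2 exceeded LKO-NC replicate 1 by less than the spread within LKO-NC. In FPKM the feedings overlapped, with FLOX-ALD replicate 2 at 617.5 and LKO-NC replicate 1 at 661.1. The averaged difference was 0.85 (SE 0.293, adjusted p = 0.11), and 0.57 without FLOX-ALD replicate 1 (adjusted p = 0.181). Cfb, factor B of the alternative pathway, differed in the other direction, at -0.44 averaged over genotypes (SE 0.18, adjusted p = 0.173), and its levels ran from 520.5 to 964.5 CPM.

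**Figure D2:**
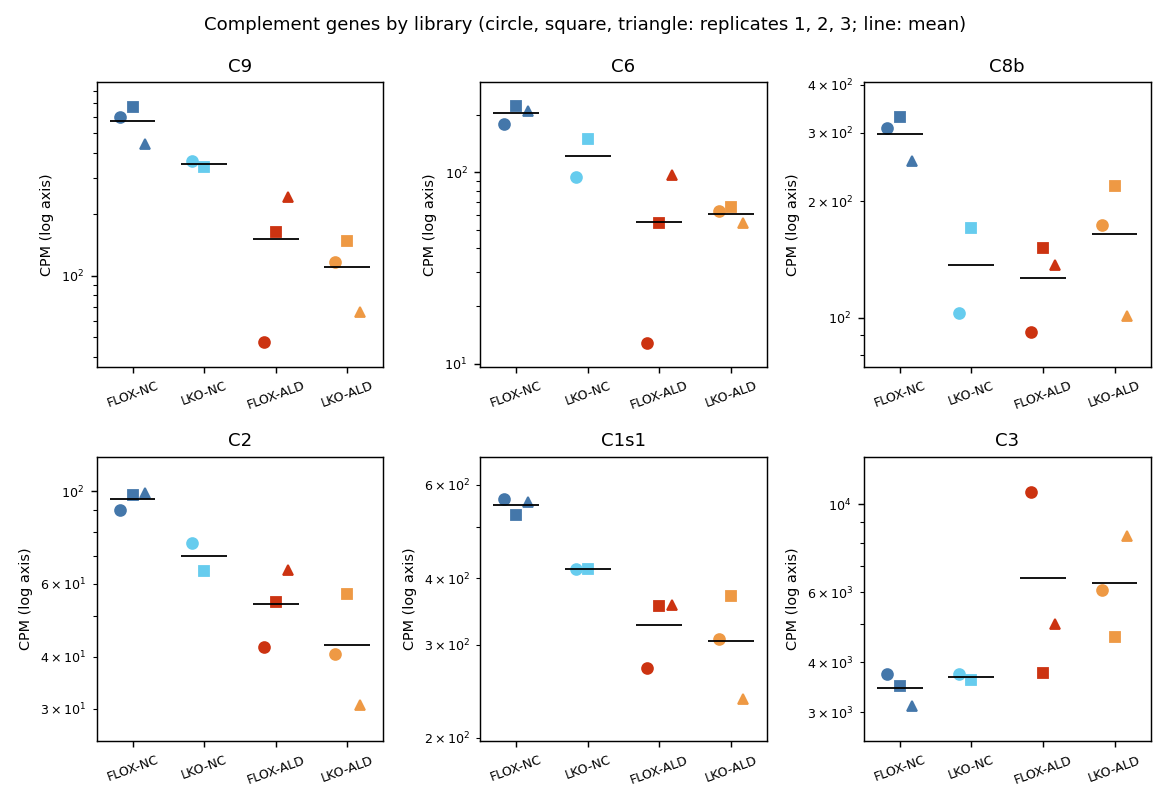
Levels of 6 complement genes in the 11 libraries. The y axis is CPM on a log scale, points are libraries grouped by genotype and feeding, and lines are group means. C9 and C1s1 under ALD lie below every NC library, C3 lies above, and C8b in LKO-NC lies at 103 and 170 CPM, below all FLOX-NC libraries.

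The lectin pathway and the complement regulators showed smaller differences. Mbl2, a mannose-binding lectin that recognises microbial sugars, had its highest level in FLOX-ALD replicate 1 at 414.9 CPM, while FLOX-ALD replicates 2 and 3 were at 95.6 and 157.1. FLOX-NC was at 400.9, 311.4 and 215.5 CPM, LKO-NC at 188.0 and 246.5, and LKO-ALD at 136.0, 186.3 and 78.1. The group mean of FLOX-ALD thus combined 1 high and 2 low libraries, and the averaged difference was -0.59 (SE 0.362, adjusted p = 0.365). Mbl1 had 0.27, the protease gene Masp1 had 0.34, and Masp2 had 0.06. Masp2 overlaps Tardbp on the opposite strand, which had a mean of 12140.3 counts against 7780.8 for Masp2. The protocols name a stranded kit, but the strand setting used in counting is not given in the sources used here. Among regulators, C4bp, which binds C4b and aids its inactivation, was at 249.6 and 370.3 CPM in LKO-NC and 560.7, 490.4 and 661.9 in LKO-ALD, a difference of 0.88 (SE 0.285, adjusted p = 0.125). In FLOX the same gene had -0.07. Serping1, the C1 inhibitor, had an averaged difference of -0.42, Cfi, the protease factor I, -0.23, and Vtn, vitronectin, 0.12. The Vtn value included FLOX-ALD replicate 1 at 3447 CPM. FLOX-ALD replicates 2 and 3 were at 1051.2 and 1890.7 CPM for Vtn, and FLOX-NC at 1794.3 to 1868.2.

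The fibrinogen chains were the genes with the largest differences towards higher levels. Fgb, the beta chain, was at 6488, 5557.9 and 4738.8 CPM in FLOX-NC and 4759.1 and 7460.2 in LKO-NC. The ALD libraries were at 21286.2, 2110.7 and 9091 CPM for FLOX and at 14552.2, 9356.1 and 19166.6 for LKO. All LKO-ALD libraries exceeded both LKO-NC libraries, but FLOX-ALD replicate 2 was the lowest of all 11 and FLOX-ALD replicate 1 the highest. The averaged difference was 1.09 (SE 0.464, adjusted p = 0.185) and 0.62 without FLOX-ALD replicate 1 (adjusted p = 0.375), with 0.95 in FLOX (SE 0.608, adjusted p = 0.552) and 1.23 in LKO (SE 0.701, adjusted p = 0.359).

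Fga and Fgg, the alpha and gamma chains, followed the same order of libraries at both ends. Fga was at 4209.5, 2522.6 and 1836.7 CPM under NC and 11418.6, 865.8 and 4442 under ALD in the FLOX libraries, and at 1528.2 and 4063.9 under NC and 7145.6, 5192.9 and 9661.6 under ALD in the LKO libraries. Fgg was at 3781.1, 2821.9 and 2174.2 CPM under NC and 12411.5, 1248.8 and 4151.3 under ALD in the FLOX libraries, and at 1617.6 and 3811 under NC and 8489.9, 5107.6 and 10821.1 under ALD in the LKO libraries. For both, LKO-ALD lay above LKO-NC while FLOX-ALD spread to either side of FLOX-NC. The averaged difference was 1.18 for Fga (SE 0.554, adjusted p = 0.234) and 1.30 for Fgg (SE 0.507, adjusted p = 0.154). These values became 0.64 for Fga (adjusted p = 0.457) and 0.73 for Fgg (adjusted p = 0.296) without FLOX-ALD replicate 1. In LKO it was 1.39 for Fga (SE 0.84, adjusted p = 0.393) and 1.58 for Fgg (SE 0.772, adjusted p = 0.285), and the Fga value was 0.85 without LKO-NC replicate 1 and 2.27 without LKO-NC replicate 2.

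A single library decided the fibrinogen value in FLOX. Without FLOX-ALD replicate 1 the FLOX difference was -0.12 for Fga and -0.13 for Fgg, in place of 0.97 and 1.02. Without FLOX-ALD replicate 2 all 3 chains passed in the averaged edgeR comparison, and with every library included none did. The summed fibrinogen level ranged 10.7-fold within FLOX-ALD, from 4225 to 45116 CPM, and 1.65-fold in FLOX-NC, 1.94-fold in LKO-NC and 2.02-fold in LKO-ALD. The chains kept closer proportions: Fgg per Fgb lay between 0.759 and 1.33 and Fga per Fgb between 0.568 and 1.17 in FPKM over the 11 libraries.

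The summed level of the acute phase genes moved with fibrinogen in most libraries. The list of 22, of which all had a mean over 1 CPM, summed to 17365, 18050 and 12564 CPM under NC and 90296, 10628 and 34909 under ALD in the FLOX libraries, and to 31360 and 21813 under NC and 48970, 25126 and 92000 under ALD in the LKO libraries. FLOX-ALD replicate 1 and LKO-ALD replicate 3 held the 2 highest sums of both acute phase genes and fibrinogen, and FLOX-ALD replicate 2 held the lowest of both. The part of this pattern in the fibrinogen result was not tested. LKO-NC replicate 1 did not follow it: its acute phase sum was above that of every FLOX-NC library and its fibrinogen sum, 7905 CPM, below. Single genes of the list also differed: 19 feeding differences were above 0 and 3 below in FLOX, and 17 above and 5 below in LKO. Cp was at 1817.6 and 1103.8 CPM in LKO-NC and at 527.9, 652.4 and 694.0 in LKO-ALD, and Fgl1 was also lower in every LKO-ALD library.

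F13b, which carries the clot-crosslinking subunit of factor XIII in plasma, was compared with the fibrinogen chains. It was at 86.9, 68.9 and 51.3 CPM under NC and 67.1, 64.0 and 38.5 under ALD in the FLOX libraries, and at 41.2 and 53.4 under NC and 88.6, 83.9 and 63.9 under ALD in the LKO libraries. Like the chains, it was higher in every LKO-ALD than in every LKO-NC library, and unlike them it was not highest in FLOX-ALD replicate 1 within the FLOX libraries. Its feeding difference was -0.29 in FLOX and 0.74 in LKO, with an interaction of 1.02 (SE 0.397, adjusted p = 0.503). Cpb2, which removes plasmin-binding residues from fibrin, was at 290.2, 250.9 and 212.1 CPM under NC and 379.9, 149.4 and 206.0 under ALD in the FLOX libraries, and at 151.0 and 221.5 under NC and 366.8, 310.7 and 603.8 under ALD in the LKO libraries. The 3 LKO-ALD libraries were above both LKO-NC libraries, by 1.20 (SE 0.413, adjusted p = 0.142), while the FLOX difference was -0.03. The Cpb2 interaction was 1.23 (SE 0.54, adjusted p = 0.527). Of the other fibrinolysis genes, Plg, the zymogen of plasmin, had -0.27 averaged over genotypes and Serpinf2, the inhibitor of plasmin, 0.14.

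**Figure D3:**
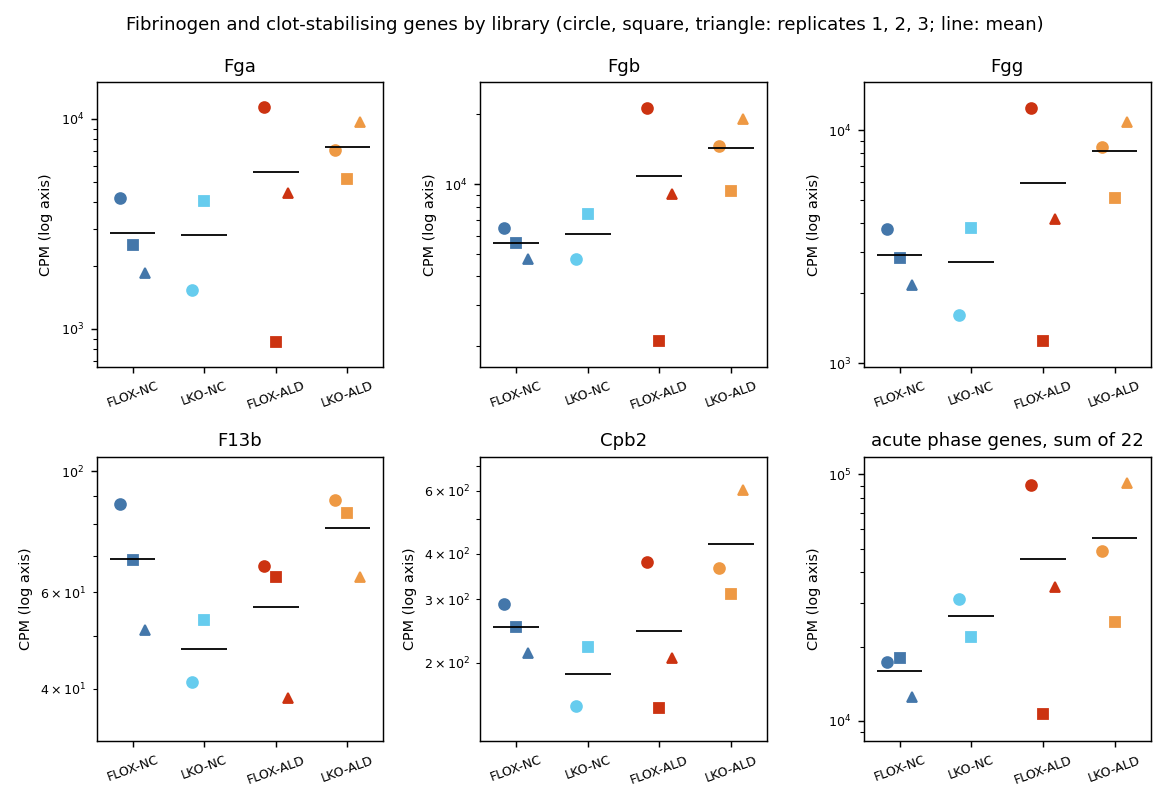
Levels of the 3 fibrinogen chains, F13b and Cpb2, and the summed level of 22 acute phase genes, in the 11 libraries. The y axis is CPM on a log scale and lines are group means. FLOX-ALD replicate 1 (circle) and replicate 2 (square) are the highest and lowest libraries for each fibrinogen chain, and replicate 2 has the lowest acute phase sum, 10628 CPM.

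Among the genes of thrombin generation, F7, the factor that starts clotting with tissue factor, stood out through one library. It was at 76.9, 69.8 and 61.9 CPM under NC and 257.8, 70.4 and 76.6 under ALD in the FLOX libraries, and at 45.9 and 49.1 under NC and 56.5, 73.8 and 49.4 under ALD in the LKO libraries. FLOX-ALD replicate 1 was at 257.8 CPM and no other library exceeded 76.9. The FLOX feeding difference of 0.96 (SE 0.414, adjusted p = 0.354) was 0.08 without that library. F10 and Proz, which adjoin F7 on chromosome 8, were also highest there, at 807.0 CPM against at most 487.6 elsewhere for F10 and at 711.0 against at most 610.7 for Proz. F2, the gene for prothrombin, was highest there too, at 1630.2 CPM, and its averaged difference was 0.27. For F2, FLOX-ALD replicates 2 and 3 were at 968.0 and 725.0 CPM, against 945.3 to 1111.8 in FLOX-NC. F5, F9 and F10 had averaged differences of -0.26, -0.14 and -0.04.

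The contact system and the anticoagulants had averaged differences mostly below 0. Klkb1, the gene for plasma prekallikrein, had the lowest value of the contact system at -0.56 (adjusted p = 0.237), and Kng2 the highest at 0.08, with Kng1 at -0.34, F11 at -0.38 and F12 at -0.13. F11 was at 65.3 to 90.5 CPM in FLOX-NC and 31.0 to 55.7 in FLOX-ALD, a difference of -0.79 (adjusted p = 0.264), but at 0.02 in LKO. F12, which starts the contact pathway, varied least of all 42 genes, between 244.3 and 314.6 CPM, or 1.29-fold. Kng1 and Kng2 are closely related kininogen genes of the mouse, and the split of reads between them is uncertain.

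All 5 anticoagulant genes had averaged values below 0. Proc, the gene for protein C, was at 672.1 to 756.0 CPM in FLOX-NC, 549.7 and 603.8 in LKO-NC, 405.2 to 564.4 in FLOX-ALD and 304.6 to 450.0 in LKO-ALD. It was apart in each genotype, with an averaged difference of -0.58 (SE 0.178, adjusted p = 0.0799). Serpinc1, the gene for antithrombin, had -0.16, Serpind1, heparin cofactor II, -0.36, and Proz, a cofactor for inhibiting activated factor X, -0.31. Pros1, the cofactor of protein C, was at 81.2, 75.7 and 68.9 CPM in FLOX-NC and 59.4, 44.4 and 55.6 in FLOX-ALD, a difference of -0.50 (adjusted p = 0.301), and at 0.03 in LKO.

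The second question is how the cre genotype and the floxed genotype differed. No gene of the 42 passed in LKO-NC against FLOX-NC (2 at an unadjusted p below 0.05, both lower, or 4.76% against 6.52% of all genes), where 0.0105% of all genes were called. In LKO-ALD against FLOX-ALD none passed either (3 at an unadjusted p below 0.05, or 7.14% against 8.05%), and 0% of all genes were called. Averaged over feedings, 0 passed (4 at an unadjusted p below 0.05, or 9.52% against 5.93%) against 0.0158% of all genes. DESeq2 called 0 of the 42 in each of these comparisons. Over all genes DESeq2 called 60 of 18963 under NC, 124 of 18963 under ALD and 68 of 15281 averaged over feedings. Differences were below 0 for 37 of 42 under control feeding, with a median of -0.29 against 0.00 for all genes, and for 27 of 42 under the NIAAA diet, with a median of -0.09 against -0.03. The control-feeding median was -0.16 without LKO-NC replicate 1 (35 below 0) and -0.43 without LKO-NC replicate 2 (38 below 0), so each of the 2 LKO-NC libraries moved it by over 1.5 times. The NIAAA-diet median was 0.10, with 19 below 0, without FLOX-ALD replicate 1.

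Under control feeding, 18 of the 42 genes were lower in both LKO-NC libraries than in all FLOX-NC libraries, or 42.9% against 13.9% of all genes, and none was higher, against 15.1%. The largest differences were C8b at -1.12 (SE 0.36, adjusted p = 0.68), C6 at -0.74 (SE 0.59, adjusted p = 0.851) and C9 at -0.70 (SE 0.537, adjusted p = 0.84), whose levels by library are given above. C6 was at -0.45 without LKO-NC replicate 1 and at -1.10 without LKO-NC replicate 2. The largest positive differences were C4b at 0.19, Fgb at 0.13 and Pros1 at 0.12, of which C4b changed sign without LKO-NC replicate 1 and Fgb without LKO-NC replicate 2. LKO-NC replicate 1 was the lowest of all 11 libraries for 5 genes, among them F2 at 534.2 CPM and C4bp at 249.6. That library also had 25.3% mitochondrial counts, a male-biased sum of 4273 CPM and an acute phase sum of 31360 CPM, and the part of these in the differences was not tested.

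Under the NIAAA diet, 1 gene was apart and higher in LKO, against 6.35% of all genes, and 0 were apart and lower, against 6.26%. Leaving out FLOX-ALD replicate 1 gave 12 higher (28.6%, against 12.8% of all genes), among them Pros1, Cpb2 and the 3 fibrinogen chains, and 1 lower (2.38%, against 12.9%), C9. With all libraries the gene apart was Pros1, at 91.4, 67.5 and 91.1 CPM in LKO-ALD against 59.4, 44.4 and 55.6 in FLOX-ALD, a log2 difference of 0.65 (SE 0.195, adjusted p = 0.497). Cpb2 followed with 0.80 (SE 0.357, adjusted p = 0.611) and F13b with 0.48 (SE 0.263, adjusted p = 0.665). The lowest values were F7 at -1.17 (SE 0.416, adjusted p = 0.541), Mbl2 at -0.74 (SE 0.487, adjusted p = 0.73) and Hc at -0.71 (SE 0.335, adjusted p = 0.623). Without FLOX-ALD replicate 1, F7 was at -0.29 and Mbl2 at 0.09, while Hc was at -0.77, Pros1 at 0.75 and Cpb2 at 1.28. Without FLOX-ALD replicate 3, Hc was at -0.27 and F13b at 0.25, and without LKO-ALD replicate 3 Cpb2 was at 0.49. Under the NIAAA diet Hc was at 661.1, 419.2 and 1145.1 CPM for FLOX and at 431.8, 565.3 and 362.3 for LKO, so the groups overlapped.

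**Figure D4:**
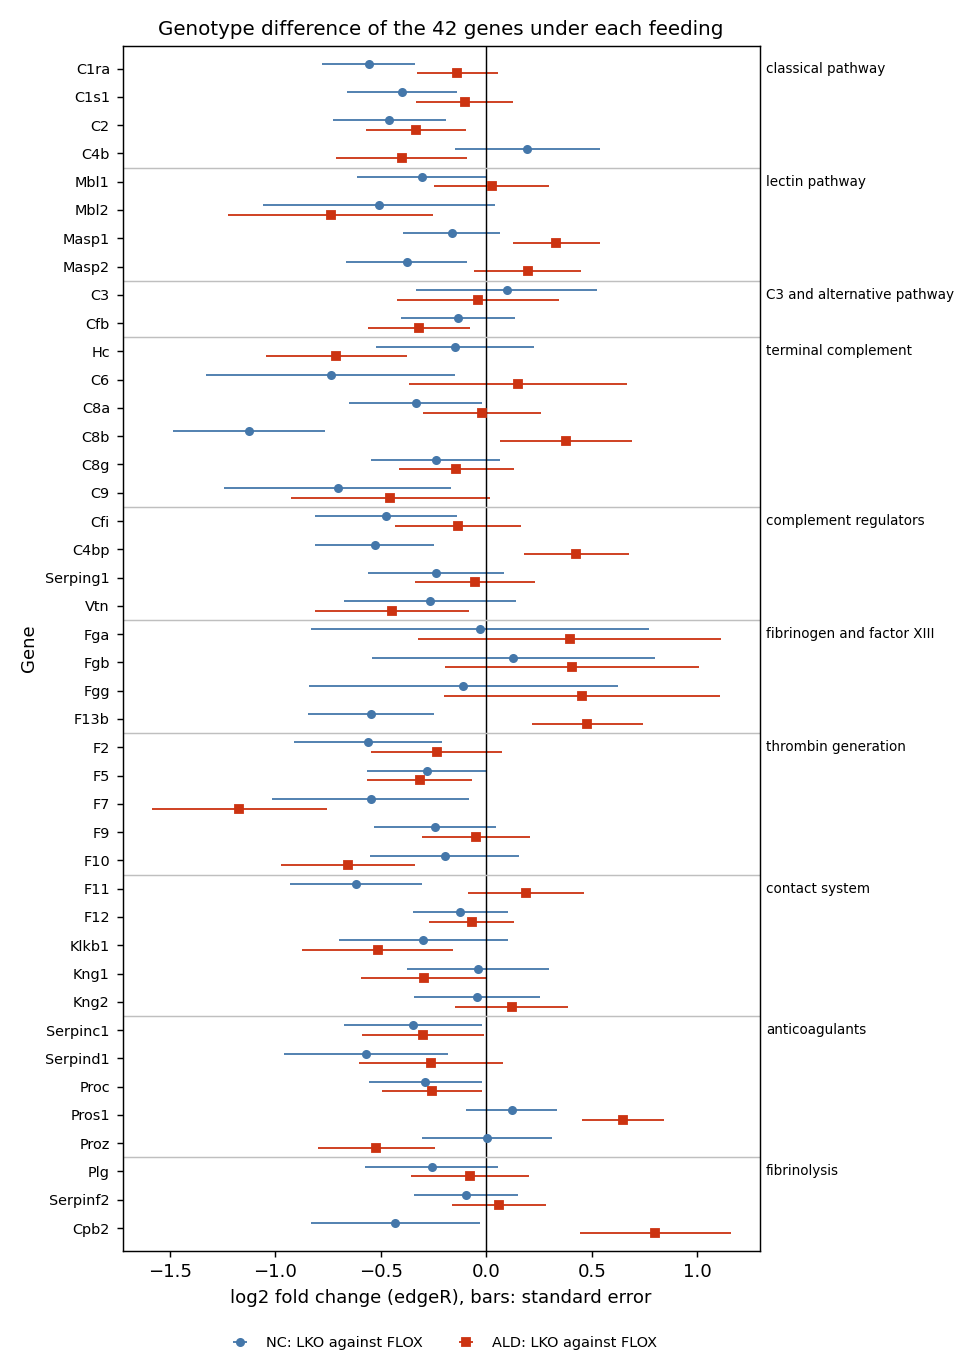
Genotype difference of each of the 42 genes, by role. The x axis is the edgeR log2 fold change of LKO against FLOX, circles under NC and squares under ALD, with standard errors as bars. Under NC 37 of 42 circles lie below 0, with C8b lowest at -1.12; under ALD Cpb2 is highest at 0.80 and F7 lowest at -1.17.

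The third question is whether the feeding difference itself differed between the genotypes. The interaction passed for 0 of the 42 genes (4 at an unadjusted p below 0.05, all positive) against 0.00526% of all genes. DESeq2 called 0 of the 42, beside 77 of all 18963 genes it tested. The 4 are 9.52% of the 42, and 9.37% of all genes were at an unadjusted p below 0.05, so that count was at the background. The interaction was above 0 for 30 of the 42, with a median of 0.19 against -0.05 for all genes. Single libraries moved that median widely: it was 0.03 without LKO-NC replicate 1 (23 above 0) and 0.44 without FLOX-ALD replicate 1 (34 above 0). The 4 were C8b, C4bp, F13b and Cpb2, and for each the FLOX difference was below 0 and the LKO difference above it. The C4bp interaction was 0.95 (SE 0.376, adjusted p = 0.504).

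**Figure D5:**
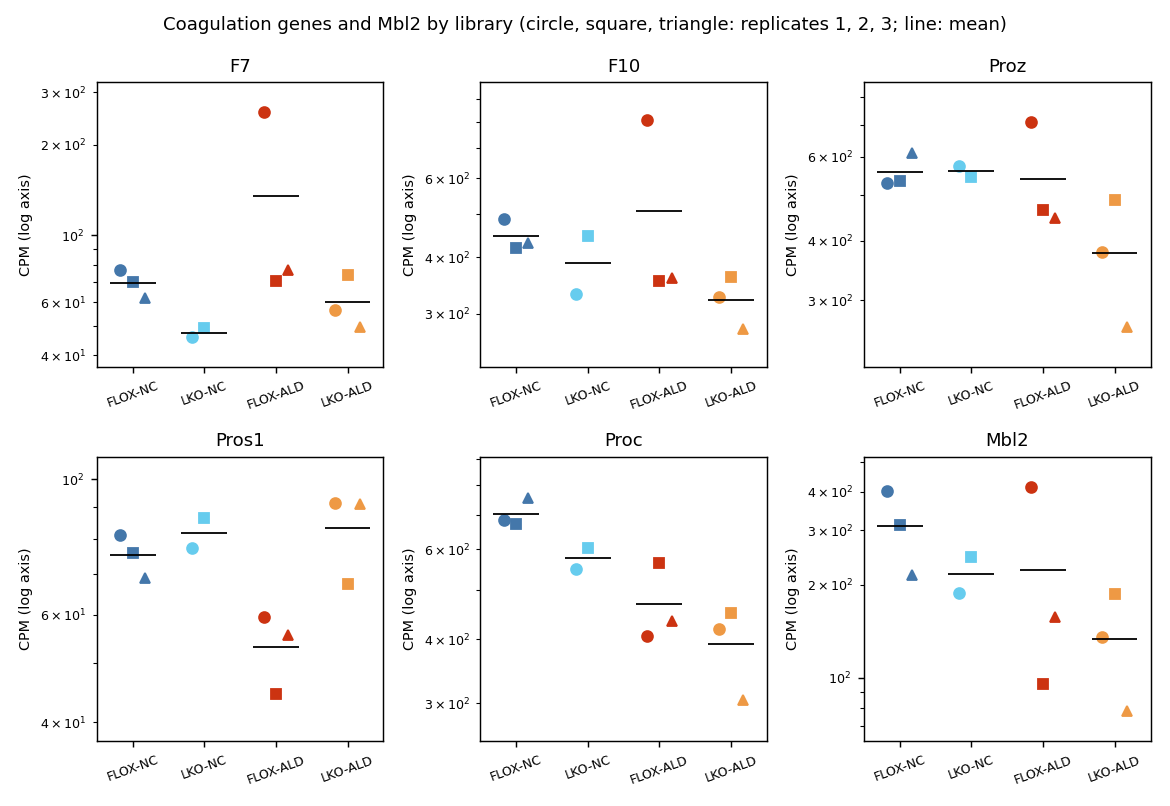
Levels of 5 coagulation genes and Mbl2 in the 11 libraries. The y axis is CPM on a log scale and lines are group means. F7, F10, Proz and Mbl2 are highest in FLOX-ALD replicate 1 (circle), whereas Pros1 in all LKO-ALD libraries, at 67.5 to 91.4 CPM, lies above all FLOX-ALD libraries.

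Other genes of these systems were counted from 9 lists in the comparison of feedings averaged over genotypes. Beside these counts, 2.2% of all genes were called higher and 2.41% lower, and 22.7% were at an unadjusted p below 0.05, and a single call in a list is not read as a result about that list. Of 11 other complement components tested, 1 fell: Cfd, the factor D protease of the alternative pathway, at 0.91 to 2.68 CPM in the NC and 0 to 0.818 CPM in the ALD libraries (log2 difference -3.01, adjusted p = 0.0256). Of 12 other coagulation genes, 1 rose: Thbd, the thrombin receptor thrombomodulin that activates protein C (2.40, adjusted p = 0.0209). Of 8 genes of the vitamin K cycle and factor export, 2 rose: the quinone reductase Nqo1 (1.37, adjusted p = 0.0252) and Mcfd2, an export cofactor for factors V and VIII (0.92, adjusted p = 0.0369). None passed of 15 other complement regulators and receptors (1 at an unadjusted p below 0.05), of 8 other serpins and plasma inhibitors (4) or of 9 other fibrinolysis genes (1). The largest values of these 3 lists were Vsig4 at -0.73, A2m at 6.60 (SE 2.54, adjusted p = 0.179) and S100a10 at 0.81. The A2m value came from FLOX-ALD replicate 1 at 20.2 CPM and LKO-ALD replicate 3 at 55.5, and the other 4 ALD libraries, at 0.0647 to 0.304 CPM, lay near the NC libraries at 0.0417 to 0.195.

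The lists upstream of acute phase genes were mixed. Of 14 genes of cytokine input, 1 fell: Nfkbia, the inhibitor of NF-kB, at 44.9 to 67.7 CPM in NC and 26.8 to 36.2 in ALD libraries (-0.93, adjusted p = 0.00582), and it also fell within LKO (-1.18, adjusted p = 0.0303). Socs3, the feedback inhibitor of interleukin 6 signalling, had the largest value of that list at 1.26 (adjusted p = 0.278). Of 12 hepatocyte transcription factors, 1 fell: Ppara (-0.90, adjusted p = 0.0292). Of the 22 acute phase genes, 1 rose: Serpina3m (2.20, adjusted p = 0.0101), also within LKO (2.99, adjusted p = 0.0396), and 13 were higher at an unadjusted p below 0.05, against 12.4% of all genes. Saa2 had the largest value at 4.46 with adjusted p = 0.0985.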

How the data were processed

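RNA of mouse liver was sequenced in 12 labelled samples, and 11 had a column in the tables used here. Per the labels' protocols, a stranded mRNA kit was used. The submitters' processing notes name cutadapt, FastQC, HISAT2, StringTie, edgeR and build mm10, without versions or parameters. The deposited tables hold estimated counts per gene and transcript, already whole numbers, and FPKM values per gene and transcript made by the authors. Each gene's estimated count equalled the sum of its transcripts in all 55401 genes. For transcripts with at least 200 counts, 95% of the deposited FPKM values lay within 0.244% of count over length times 1 factor per library.

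Counts were scaled by TMM and tested with edgeR 4.0.16 (R 4.3.3; filterByExpr, minimum count 10, minimum total 15; robust glmQLFit and glmQLFTest; 1 mean per group over all 11 libraries), with Benjamini-Hochberg adjustment over 19014 genes and a threshold of 0.05. The 7 contrasts were feeding in each genotype, genotype under each feeding, both averages and the interaction; those that share a group are not independent of each other. Residual degrees of freedom were 7. The biological coefficient of variation of the 42 genes was 20.9 to 58.8%. The fits were also run on simulated counts with a single fixed spread for all genes and no outlying library. That setting differs from these data, so it was a check of the code only. Alternatives were DESeq2 1.42.0, limma 3.58.1 (voom, and log2 of FPKM plus 1 or 0.1), RLE factors, no filter, a block by the number in the sample title and leaving out each library. After the data were seen, 2 settings were added: leaving out mitochondrial genes, and FLOX-ALD with replicate 3 alone.

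The genes and lists were chosen with earlier results of these data known. Full values are given for genes past the threshold in any contrast and for the 3 largest differences in each direction of each group comparison; the remaining genes are given by ranges, counts and the extremes of their role, and for other lists the genes past the threshold and the largest difference. C3, Cfb, C1s1, C1ra, C4bp, Vtn, Proc, F2, F10, F11, F12 and Proz were given further values after their values were seen. Depth was 39063371 to 73557868 counts per library. Reads of overlapping genes on opposite strands, of near-identical copies and among a gene's transcripts may have been assigned wrongly. The leading transcript held over 85% of the count in every library for 27 of the 42 genes. No column of a sample outside the labels was present. Figures were drawn with matplotlib.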

Additional observations from a re-analysis of the deposited data

How the results depend on the processing

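Counts of called genes depended on the model and on single libraries. DESeq2 called 6 of the 42 in FLOX feeding, 3 in LKO feeding and 9 in feeding averaged over genotypes, against 0, 0 and 2. Leaving out 1 library at a time gave 0 to 6 in the averaged comparison, 0 without either of FLOX-NC replicates 1 and 2 or LKO-NC replicates 1 and 2, 1 without FLOX-NC replicate 3 or LKO-ALD replicate 1, 4 without FLOX-ALD replicate 3, 6 without FLOX-ALD replicate 2, and 0 to 1 in LKO feeding. FLOX-ALD with replicate 3 as its group's only library, which is assumed to vary like the other groups, put 34 of the 42 FLOX feeding differences below 0. Over all genes the averaged count was 287 of 18866 without FLOX-NC replicate 1, 250 of 18835 without replicate 2 and 383 of 18848 without replicate 3. It was 175 of 20347 without LKO-NC replicate 1 and 348 of 20571 without LKO-NC replicate 2. It was 363 of 18875 without LKO-ALD replicate 1, 1448 of 18784 without FLOX-ALD replicate 3 and 1137 of 18804 without FLOX-ALD replicate 2. The 1 in LKO feeding stood beside 251 of 18869. In the averaged comparison limma voom called 3, beside 908 of 19014 genes. With log2 of FPKM plus 1 and plus 0.1 the counts were 2 beside 801 and 3 beside 831. C9 kept its averaged call in 16 of 20 settings and C2 in 11 of 20.

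Direction reversed for few named genes when 1 library was left out. The ranges were -0.13 to 1.49 for Fgg and -0.12 to 1.47 for Fga in FLOX feeding, -0.0127 to 0.38 for C4b and -0.23 to 0.41 for Fgb in LKO-NC against FLOX-NC, -1.10 to 0.0899 for Mbl2 in LKO-ALD against FLOX-ALD, and -0.94 to 0.26 for the F7 interaction. The F7 interaction was 0.23 with FLOX-ALD replicate 3 alone. The median of the 42 ranged from -0.25 to 0.12 in LKO feeding and from -0.22 to 0.10 in LKO-ALD against FLOX-ALD. The cause was not tested. Of 908 alternative values of named genes, 858 kept direction and side of the threshold, 30 gained the threshold, 13 lost it and 7 reversed.

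Libraries were also matched by the number in their sample titles, which in LKO differs from the replicate number. In FLOX the correlations of same-numbered libraries were 0.0778, -0.0244 and -0.0362, within the range of the other pairs, -0.0832 to 0.0972. In LKO they were -0.0481 for replicate 1 of both feedings and -0.0505 for LKO-NC replicate 2 with LKO-ALD replicate 3. The LKO values cannot show whether pairing exists, because deviations of 2 LKO-NC libraries from their mean mirror each other. With the title number as a block, 2 of the 42 passed in the averaged comparison (C9 and C2), 0 in FLOX, 0 in LKO and 0 in the interaction. Over all 19014 genes the block fit called 519 in the averaged comparison, against 877 without the block. It called 12 in FLOX, 7 in LKO and 0 in the interaction.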
